A study of Rattus norvegicus with 30 samples.

Results

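The genes described here are 60 genes of mitosis, the spindle and the kinetochore, chosen by name as a list of the machinery that separates chromosomes, and 50 of the 60 had a probe set named for them on the array. The other 10 (Spc24, Kif18a, Cenpe, Cenpf, Anln, Ckap2, Ncapg, Ncaph, Knl1 and Espl1) were not analysed here. Each gene was read on 1 probe set, the one with the highest mean over the 30 arrays. All 50 passed a filter on dim probe sets, beside 11675 genes tested out of 14506 named in the whole series. Kif20b and Melk passed it on only 3 arrays, those of the group in which they were highest (ipsilateral, 12 months, day 3). A difference in that group was therefore a condition of their being tested, and both are kept in the counts below.

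Microglia were isolated from male rats after a 75 min occlusion of the middle cerebral artery or a sham procedure, and their RNA was hybridised to Affymetrix Rat Gene 1.0 ST arrays. Rats aged 3 or 12 months were used, and the cells came from the ipsilateral (injured) or contralateral hemisphere at day 3 or day 14 after the stroke, or from sham controls, which made 10 groups of 3 samples. The labels conflict on the strain, with Wistar Kyoto in the characteristics and spontaneously hypertensive rats in the protocols, and no transgene or drug is named other than 1.2% isoflurane during the occlusion, which the labels give for the stroke procedure. The study followed microglial expression from the early to the later phase after stroke at both ages. Each ipsilateral sample shares its animal code with a contralateral one, 12 animals in all. The labels do not say that sham samples were separate animals, so the spread among the 3 samples of a sham group may be technical. Differences from sham may then rest on fewer animals than samples. The spread used for the p-values was pooled over the 10 groups. A technical spread in sham would therefore enter every p-value, those between the hemispheres included.

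A dividing cell enters mitosis when CDK1 binds a B-type cyclin, condensin folds the chromosomes, and kinesins with microtubule-binding proteins build a bipolar spindle. Kinetochores, protein plates on the centromeres, hold the spindle fibres, and checkpoint kinases delay separation until each is held. The anaphase-promoting complex then releases the sister chromosomes and the cell is cleaved. Adult microglia divide slowly in the healthy brain and multiply after injury, and the genes of this machinery are transcribed mostly in late S phase, G2 and mitosis.

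Many of these genes share promoter letters. CCAAT boxes are the letters that the factor NF-Y reads, and the cell cycle genes homology region, usually written TTTGAA or TTTAAA, is read by the MuvB complex with B-Myb and FOXM1 or, as a repressor, in the DREAM complex. RefSeq promoter windows (assembly GRCr8, 250 bases before to 50 after an annotated start) were held for 52 of the 60 genes, in 54 windows. The letters CCAAT on either strand were found in 74.1% of these windows and in 37.5% of all 33469 promoter windows. At least 2 of them were found in 50.0% against 11.2%. TTTGAA on either strand stood in 66.7% against 18.3%, and TTTAAA, which reads the same on both strands, in 27.8% against 13.6%. CCAAT together with TTTGAA or TTTAAA was found in 63.0% of the windows of these genes and 11.3% of all windows. In only the 200 bases before the start the shares for this combination were 53.7% and 6.1%. Matches of different motifs were counted separately even where they shared bases.

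The last 120 bases before the start are shown for 5 genes that were high at day 3 and carry such letters (Ccnb1, Ccnb2, Cdk1, Pttg1 and Top2a), and for Aurka and Ttk, whose probe sets went another way; whether those probe sets read only the named transcripts was not checked here. Capitals mark CCAAT and the letters TTTGAA and also TTTAAA on either strand, so ATTGG and TTCAAA are the same motifs on the opposite strand.
Ccnb1 (chr2:33655226-33655345, minus strand): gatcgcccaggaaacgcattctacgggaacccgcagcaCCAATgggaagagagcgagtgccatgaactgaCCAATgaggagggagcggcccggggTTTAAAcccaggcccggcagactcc
Ccnb2 (chr8:79981659-79981778, minus strand): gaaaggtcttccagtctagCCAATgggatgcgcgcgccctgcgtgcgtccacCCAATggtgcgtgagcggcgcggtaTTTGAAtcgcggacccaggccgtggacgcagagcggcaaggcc
Cdk1 (chr20:19265173-19265292, plus strand): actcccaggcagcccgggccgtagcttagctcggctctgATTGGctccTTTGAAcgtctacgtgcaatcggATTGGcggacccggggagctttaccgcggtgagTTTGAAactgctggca
Pttg1 (chr10:28406327-28406446, minus strand): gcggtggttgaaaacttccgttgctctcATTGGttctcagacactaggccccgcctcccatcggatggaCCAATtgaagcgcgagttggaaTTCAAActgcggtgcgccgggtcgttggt
Top2a (chr10:84473094-84473213, minus strand): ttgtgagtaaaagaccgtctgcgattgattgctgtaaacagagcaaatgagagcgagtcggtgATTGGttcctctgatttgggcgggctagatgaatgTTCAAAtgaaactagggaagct
Aurka (chr3:181560770-181560889, minus strand): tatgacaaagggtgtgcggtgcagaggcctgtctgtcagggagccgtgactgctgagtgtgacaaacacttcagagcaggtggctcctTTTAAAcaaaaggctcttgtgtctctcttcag
Ttk (chr8:93634519-93634638, plus strand): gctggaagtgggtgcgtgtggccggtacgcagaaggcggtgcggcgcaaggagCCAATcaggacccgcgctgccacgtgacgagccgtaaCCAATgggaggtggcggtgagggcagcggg
Positions are those of the first base of a match, with the annotated start as 0. Ccnb1 had CCAAT at -82 and -50, 32 bases apart, followed by TTTAAA at -25. Ccnb2 had 3 of them at -134 (outside the bases shown), -101 and -68, 33 bases apart each time, followed by TTTGAA at -43, and Cdk1 had 3, at -210 (outside the bases shown), -81 and -49, the last pair 32 bases apart. A pair 30 to 35 bases apart was found in 7 of the 54 windows (13.0%) and in 1.4% of all windows, a spacing chosen for counting after these sequences had been read. Aurka and Ttk were not without such letters: TTTAAA stood at -32 in the Aurka window. That of Ttk had CCAAT at -67 and -30 and TTTGAA at 4, past the bases shown. The annotated Aurka gene, on the minus strand, extends to position 181562890, and that of Ttk, on the plus strand, begins at 93632678. Both windows thus lie wholly inside the annotated gene, and whether they are the main promoters was not checked. A match is a string of letters and not evidence that a factor was bound there, and the arrays hold no measurement of binding.

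At day 3 the mitotic genes stood higher in the ipsilateral than in the contralateral hemisphere, more so at 12 than at 3 months, and at day 14 few of them differed. Each array's median over the 50 genes shows this on the log2 signal scale. It was 4.43, 4.46 and 4.51 in 3-month sham samples, 4.75, 4.64 and 4.71 in the contralateral and 5.22, 5.32 and 5.25 in the ipsilateral samples of day 3. At 12 months it was 4.49 in each sham sample, 5.36, 4.99 and 5.51 contralaterally and 6.76, 6.62 and 6.88 ipsilaterally at day 3. At either age the day-3 groups did not overlap each other or sham, and the contralateral samples lay between sham and ipsilateral. At day 14 the medians were 4.43 to 4.51 in the contralateral samples of both ages and 4.47 to 4.93 in the ipsilateral ones, the highest being replicate 1 of the 12-month rats. For 49 of the 50 genes the highest group mean was that of the ipsilateral 12-month samples at day 3. For 30 genes the second highest was the ipsilateral group of 3 months at day 3, for 19 the contralateral group of 12 months at day 3.

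**Figure D1:**
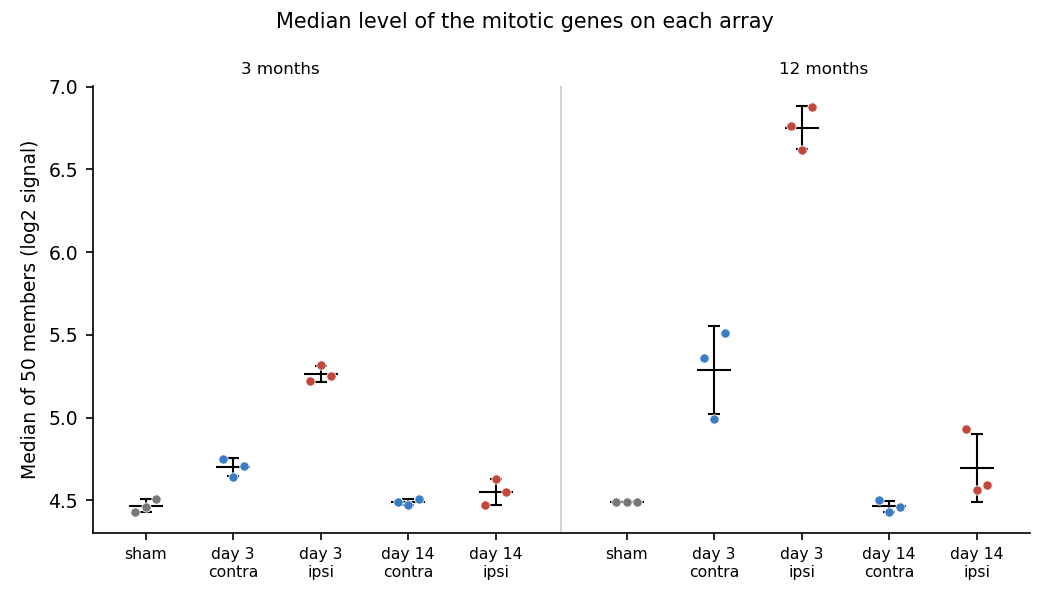
Median log2 signal over the 50 mitotic genes on each of the 30 arrays (points), by age, day and hemisphere; the bar and whiskers are the mean ± SD of 3 arrays. The 12-month ipsilateral day-3 arrays lie at 6.62 to 6.88 and the sham arrays at 4.43 to 4.51.

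The 50 genes followed one another closely over the arrays. Pearson's r of each gene with the median of the others over the 30 arrays, which share animals and array processing, had a median of 0.96, and it was at least 0.9 for 42 genes. It was lowest for Aurka (-0.19), Ttk (0.34), Smc2 (0.67) and Cdc25c (0.70). By the standard deviation over the 30 arrays, Top2a lay at percentile 99.9 of the genes tested and Cdk1 at 99.6, against 69.2 for Aurka.

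In the test of ipsilateral against contralateral samples at day 3, 35 of the 50 genes were higher and 0 lower at 3 months, where 11.5% of all genes tested were higher and 8.95% lower. At 12 months 48 were higher and 0 lower, where 18.7% of all genes were higher and 10.0% lower. The 48 include Kif20b and Melk, for which high values in that ipsilateral group were a condition of testing. The 35 genes of 3 months were all among the 48 of 12 months. The median difference on the log2 scale was 0.55 at 3 months (1.47-fold) and 1.55 at 12 months (2.92-fold), while the median over all genes was -0.01 at either age. A difference of at least 2-fold was reached by 11 genes at 3 months and 41 at 12 months, and the share of all genes that did so was not computed. The differences were found in single animals as well: the 3 animals of 3 months had medians of 0.48, 0.66 and 0.53 and those of 12 months 1.34, 1.67 and 1.41, so that the ages did not overlap. At 12 months 48 genes were higher in the injured hemisphere of each of the 3 animals, and at 3 months 45 were. Of all genes tested, 53.2%, 47.2% and 50.1% were higher there in the single animals of 12 months. At 3 months the shares were 46.9%, 50.6% and 49.5%. The share of all genes higher in each of the 3 animals was not computed.

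**Figure D2:**
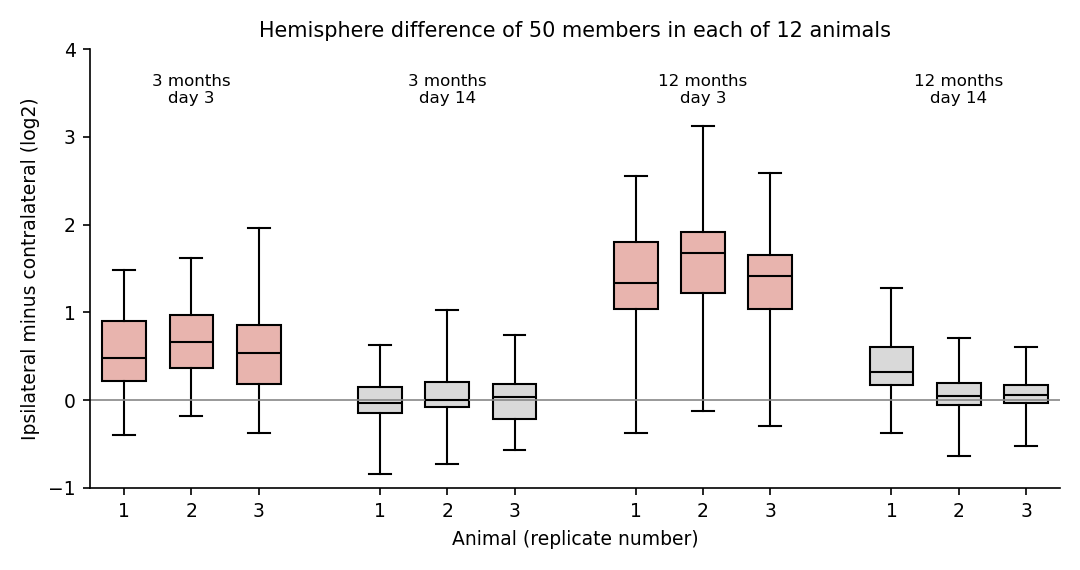
Ipsilateral minus contralateral log2 signal of the 50 mitotic genes within each of the 12 animals; boxes run from the lower to the upper quartile of the genes with the median as a line, and whiskers run to the lowest and highest gene. Medians are 1.34 to 1.67 in the 12-month animals of day 3, 0.48 to 0.66 in the 3-month animals of day 3, and -0.03 to 0.32 in the 6 animals of day 14.

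CDK1 and its partners start mitosis. Of 6 genes in this group 5 were higher ipsilaterally at 3 months and 6 at 12 months at day 3. Ccnb1 encodes cyclin B1, the activating subunit that sets off entry into mitosis. Its log2 signal at 12 months was 4.37, 4.14 and 4.36 in sham, 5.60, 4.77 and 5.52 contralaterally and 8.16, 7.89 and 8.11 ipsilaterally at day 3. At 3 months it was 4.22, 4.38 and 4.36 in sham, 4.59, 4.69 and 4.57 contralaterally and 5.86, 6.21 and 5.58 ipsilaterally. The ipsilateral samples lay above each of the others at both ages, and the difference from the contralateral samples was 2.76 ± 0.20 (standard error, n = 3 per group; limma adjusted p = 1.1e-11) at 12 months, the largest of the 50, and 1.27 ± 0.20 (adjusted p = 1.8e-05) at 3 months. The day-3 values of Ccnb2, another B-type cyclin, were 6.90, 6.59 and 7.10 contralaterally against 8.82, 8.53 and 8.82 ipsilaterally at 12 months, and 5.94, 6.09 and 6.25 against 7.10, 7.51 and 7.21 at 3 months. These groups did not overlap, and the differences were 1.86 ± 0.17 and 1.18 ± 0.17. Cdk1, the kinase itself, rose by 1.69 and 1.06. Cdkn3, a phosphatase that acts on CDK proteins, rose by 2.03 and 1.59, the latter the largest difference at 3 months. Cdc25c, the phosphatase that activates CDK1, was the exception at 3 months, where it did not pass.

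Among the 5 other mitotic kinases 2 rose ipsilaterally at 3 months and 4 at 12 months at day 3. Plk1, which drives centrosome maturation and many later steps, stood at 6.06, 5.88 and 6.11 contralaterally and 8.13, 8.09 and 7.95 ipsilaterally at 12 months. At 3 months it was 5.41, 5.06 and 5.45 against 6.11, 6.46 and 6.35. The hemispheres did not overlap, with differences of 2.04 ± 0.13 (adjusted p = 2.2e-12) and 1.00 ± 0.13 (adjusted p = 1.9e-06). Pbk, a kinase of dividing cells, rose by 1.54 at 12 months, while its difference of 0.06 at 3 months did not pass. The probe set of Aurka, the centrosomal Aurora kinase, went another way. Its day-3 values at 12 months were 8.52, 8.36 and 8.46 contralaterally and 8.14, 8.29 and 8.16 ipsilaterally, lower on the injured side without overlap, yet the difference of -0.25 ± 0.11 did not pass (adjusted p = 0.10; it passed with quantile normalization, with array weights and with only the compared arrays). At 3 months it was 8.03, 7.79 and 8.10 against 7.64, 7.61 and 7.99, overlapping groups with a difference of -0.23 that was -0.39, -0.18 and -0.12 within the 3 animals (not passing, but passing at -0.35 without ipsilateral replicate 3).

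Of the 4 spindle checkpoint genes 3 rose at each age at day 3. Bub1, a kinase that gathers checkpoint proteins at the kinetochore, read 4.90, 4.58 and 5.22 contralaterally and 6.98, 7.14 and 7.17 ipsilaterally at 12 months. At 3 months it was 4.07, 4.18 and 4.24 against 5.03, 5.22 and 5.26. No array of one hemisphere reached the other, and the differences were 2.20 ± 0.14 and 1.01 ± 0.14. In the contralateral group of 3 months each Bub1 value lay at or below the 30th percentile of its array, so that the signal there is only a bound, and on that basis the difference at 3 months was at least 0.86. For Ttk, the kinase MPS1 at the head of the checkpoint, the signal of the probe set did not pass in either direction. Its values at day 3 were 6.12, 6.32 and 6.18 contralaterally and 6.32, 6.21 and 6.14 ipsilaterally at 12 months, and 5.30, 5.31 and 5.39 against 4.90, 5.41 and 5.39 at 3 months. These groups overlapped, and the differences of 0.01 ± 0.13 and -0.10 ± 0.13 did not pass.

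The genes of anaphase and of the chromosomal passenger complex moved with the cyclins. Pttg1, securin, the protein that holds separase back until anaphase, had 6.53, 6.72 and 7.21 contralaterally and 8.57, 8.41 and 8.59 ipsilaterally at 12 months, and 5.68, 5.73 and 6.07 against 6.95, 7.36 and 7.26 at 3 months. The hemispheres were apart at both ages, by 1.70 ± 0.16 and 1.36 ± 0.16. Cdc20, which activates the anaphase-promoting complex, rose by 1.55 at 12 months and did not pass at 3 months, while Ube2c, the ubiquitin-conjugating enzyme of that complex, rose by 1.13 and 0.59. The passenger complex corrects faulty attachments and steers cleavage, and its 4 genes rose at 12 months, 3 of them also at 3 months. Birc5, survivin, was 6.31, 6.08 and 6.54 contralaterally and 8.01, 7.76 and 8.02 ipsilaterally at 12 months, and 5.66, 5.63 and 5.81 against 6.55, 6.63 and 6.64 at 3 months. Aurkb, the kinase of the complex, was 5.27, 4.84 and 5.25 against 6.85, 7.05 and 6.99 at 12 months, and 4.35, 4.51 and 4.51 against 5.51, 5.46 and 5.21 at 3 months. Neither gene's groups overlapped, with differences of 1.62 and 0.90 for Birc5 and 1.84 and 0.94 for Aurkb (standard error 0.13 for each).

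Among kinetochore and centromere genes at day 3, 6 of 6 rose ipsilaterally at 12 months and 2 of 6 at 3 months. Several other roles also had more genes called at 12 than at 3 months. Spc25, a subunit of the NDC80 complex that grips microtubules, had 5.19, 5.06 and 5.52 contralaterally and 7.04, 7.09 and 7.17 ipsilaterally at 12 months. At 3 months its values were 5.20, 4.99 and 5.07 against 5.22, 5.02 and 5.25, which overlapped. The difference was 1.84 ± 0.13 (adjusted p = 4.6e-12) at 12 months and 0.07 ± 0.13 (adjusted p = 0.78) at 3 months. Nuf2, of the same complex, rose at both ages, from 4.59, 4.0 and 5.14 to 6.54, 6.40 and 6.72 at 12 months. At 3 months it went from 3.60, 3.45 and 3.72 to 4.50, 3.98 and 4.47. The contralateral values there were dim, and allowing only for the dim range the difference of 0.72 is at least 0.01. Cenpk, of the inner kinetochore, was 5.26, 4.97 and 5.00 against 6.58, 6.46 and 6.87 at 12 months without overlap, and 4.33, 4.49 and 4.30 against 4.76, 4.69 and 4.49 at 3 months, where the groups met at 4.49 and the difference of 0.27 did not pass. Cenpa, the centromeric histone, rose by 1.04 at 12 months and did not pass at 3 months.

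The motors and microtubule proteins of the spindle rose together: 9 of 9 kinesins and 6 of 6 spindle microtubule proteins at 12 months, and 7 and 6 at 3 months. Kif4a, a chromosome-bound kinesin of the spindle midzone, had 4.73, 3.82 and 4.67 contralaterally and 6.53, 6.60 and 6.32 ipsilaterally at 12 months. At 3 months it was 3.69, 3.46 and 3.78 against 4.12, 4.48 and 4.01, a difference of 0.56 ± 0.16 from dim contralateral values, for which no bound can be given, that passed but was lost without contralateral replicate 2 (0.47) or ipsilateral replicate 2 (0.42). At 12 months the hemispheres were 2.08 ± 0.16 apart with no overlap. Kifc1, a minus-end-directed kinesin, changed less, from 6.04, 5.69 and 5.66 to 6.72, 6.50 and 6.78 at 12 months (0.87 ± 0.12), and at 3 months its 5.83, 5.57 and 5.87 against 5.92, 6.18 and 5.93 did not pass. Kif11, the motor that pushes the spindle poles apart, was 4.64, 4.36 and 4.86 against 5.99, 5.93 and 5.88 at 12 months and 4.36, 4.27 and 4.23 against 4.88, 4.80 and 4.84 at 3 months, with differences of 1.31 and 0.55. Among the microtubule proteins, Tpx2, which activates Aurora A and nucleates spindle fibres, read 6.25, 6.19 and 6.35 against 8.30, 8.11 and 8.31 at 12 months, and 5.37, 4.95 and 5.26 against 6.27, 6.39 and 6.58 at 3 months. Its differences, 1.98 ± 0.14 and 1.22 ± 0.14, stand beside a signal of the Aurka probe set that did not pass as higher. Stmn1, stathmin, a tubulin-binding protein, had 8.11, 7.65 and 8.14 against 9.71, 9.42 and 9.60 at 12 months and 6.86, 6.80 and 7.37 against 8.34, 8.27 and 8.47 at 3 months. The differences of 1.61 ± 0.25 and 1.35 ± 0.25 passed at both ages. Nusap1, which bundles spindle fibres, was 5.19, 5.01 and 5.26 against 6.37, 6.75 and 6.74 at 12 months (1.46) and 4.79, 4.57 and 4.74 against 5.14, 5.08 and 5.02 at 3 months (0.38, a call lost with array weights, at 0.35, and without contralateral replicate 2, at 0.31, or ipsilateral replicate 1, at 0.35).

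For cytokinesis 2 of 2 measured genes rose at both ages. Ect2 and Racgap1 together switch on RhoA where the cleavage furrow forms. Ect2 was 4.45, 4.18 and 4.14 contralaterally and 6.25, 5.99 and 6.20 ipsilaterally at 12 months, and 3.63, 3.50 and 3.62 against 4.13, 4.32 and 4.30 at 3 months, where each of these 6 arrays lay in the dim range and no bound can be given. Racgap1 was 4.80, 4.65 and 5.16 against 6.77, 6.50 and 6.76 at 12 months, and 4.49, 4.27 and 4.23 against 5.40, 5.38 and 5.22 at 3 months. The differences were 1.89 ± 0.09 and 0.67 ± 0.09 for Ect2 and 1.81 ± 0.11 and 1.01 ± 0.11 for Racgap1, with no overlap.

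Chromosome structure genes varied in size of response. Top2a, the topoisomerase that disentangles sister chromosomes, had 7.19, 6.66 and 7.36 contralaterally and 8.84, 8.60 and 8.79 ipsilaterally at 12 months, and 5.47, 5.69 and 5.59 against 6.51, 6.52 and 6.63 at 3 months. Its groups were apart at both ages, by 1.67 ± 0.20 and 0.97 ± 0.20. Smc2 and Smc4, the core pair of condensin, changed less. Smc2 was 8.16, 7.68 and 8.22 against 8.55, 8.51 and 8.60 at 12 months, a rise of 0.53 ± 0.11, and 7.11, 6.83 and 6.99 against 7.24, 7.28 and 7.24 at 3 months, which did not pass (0.28; it passed with quantile normalization, and at 0.35 without contralateral replicate 1). Smc4 was 7.46, 7.10 and 7.54 against 8.15, 8.17 and 8.20 at 12 months (0.80), and 6.62, 6.61 and 6.70 against 7.08, 7.07 and 6.87 at 3 months (0.36, lost at 0.33 to 0.35 when contralateral replicate 1 or 2 or ipsilateral replicate 1 or 2 was left out). Of the other division-associated genes, Cdca3, which helps to degrade a mitotic inhibitor, was 4.32, 4.25 and 4.75 against 6.30, 6.17 and 6.36 at 12 months and 4.01, 4.04 and 4.44 against 5.10, 4.75 and 5.00 at 3 months. Cdca2, a phosphatase-targeting protein of chromatin, was 4.61, 4.53 and 4.83 against 5.42, 5.09 and 5.23 at 12 months, a rise of 0.59, and at 3 months its 4.59, 4.55 and 4.62 against 4.63, 4.88 and 4.75 did not pass.

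**Figure D3:**
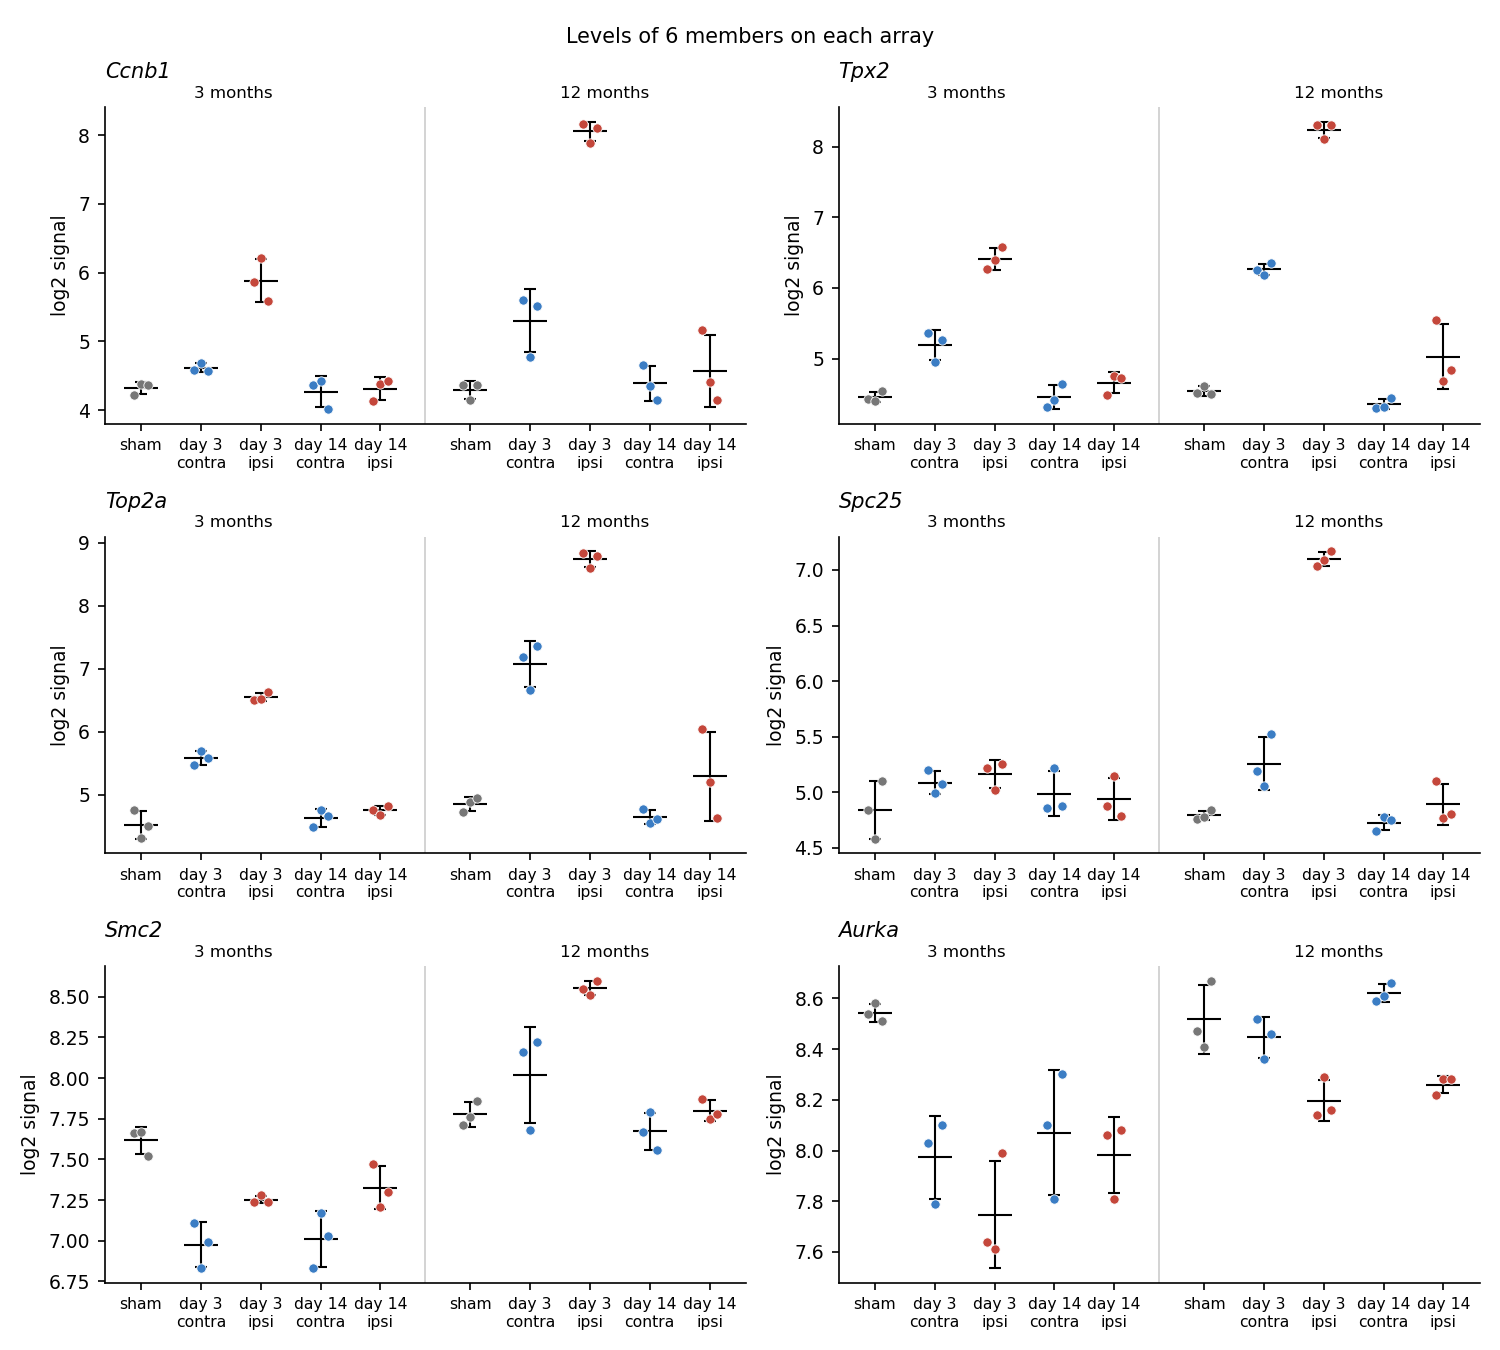
Log2 signal of Ccnb1, Tpx2, Top2a, Spc25, Smc2 and Aurka on each array (points) by age, day and hemisphere, with the mean ± SD of 3 arrays; the vertical axes differ in range. Ccnb1, Tpx2 and Top2a are highest in the 12-month ipsilateral day-3 samples, and the contralateral ones of that age and day lie above sham. Spc25 reaches 5.25 at most in the 3-month day-3 samples, and Aurka is highest in sham and 12-month contralateral samples.

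The contralateral hemisphere of 12-month rats at day 3 differed from sham in few genes, and many of those were mitotic genes. In that comparison 36 of the 50 were higher and 0 lower, where 1.16% of all genes tested were higher and 0.128% lower. They were 36 of the 135 genes higher there (26.7%), and 14 of the 20 genes with the lowest p in that comparison, against a share of 0.428% of the genes tested. The median difference of the 50 genes was 0.76 and that of all genes 0.00. Top2a, at 4.73, 4.88 and 4.95 in sham, was 2.21 ± 0.20 higher contralaterally (adjusted p = 2.9e-08), and Stmn1, at 5.93, 5.92 and 5.74 in sham, 2.10 ± 0.25 higher. Tpx2 followed from 4.51, 4.62 and 4.50 in sham by 1.72 ± 0.14, and Pttg1 from 5.26, 5.18 and 5.24 by 1.60 ± 0.16. These contralateral samples lay above sham without overlap. Replicate 2 was the lowest of the 3 contralateral samples for Ccnb1, Top2a, Nuf2 and Kif4a.

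At 3 months the same comparison gave 19 genes higher and 5 lower, where 14.4% of all genes were higher and 37.2% lower. It gave 12 higher without contralateral replicate 3 and 12 with quantile normalization. Of the 19 genes 16 were among the 36 of 12 months, the other 3 being Cdc20, Kif20a and Kifc1. Stmn1 rose by 1.12 ± 0.25 from 5.84, 6.0 and 5.82 in sham, and Top2a by 1.06 ± 0.20 from 4.75, 4.31 and 4.50. The 5 lower genes were Aurka, Ttk, Cenpk, Smc2 and Smc4. At 3 months sham, day-3 and day-14 samples carry different code numbers whose meaning is not given, so that code number and group cannot be told apart in comparisons across them.

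At day 14 the contralateral samples showed 2 genes higher (Kif11, dim on all arrays of both groups, and Nusap1) and 6 lower at 3 months, where 10.4% of all genes were higher and 28.4% lower. The 2 became 1 without 3-month sham replicate 1 or contralateral replicate 1, 0 without sham replicate 3 and 4 without contralateral replicate 3. At 12 months limma called 0 higher and 0 lower against 0.00857% and 0% of all genes, with 2 of the 50 at an unadjusted p under 0.05.

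**Figure D4:**
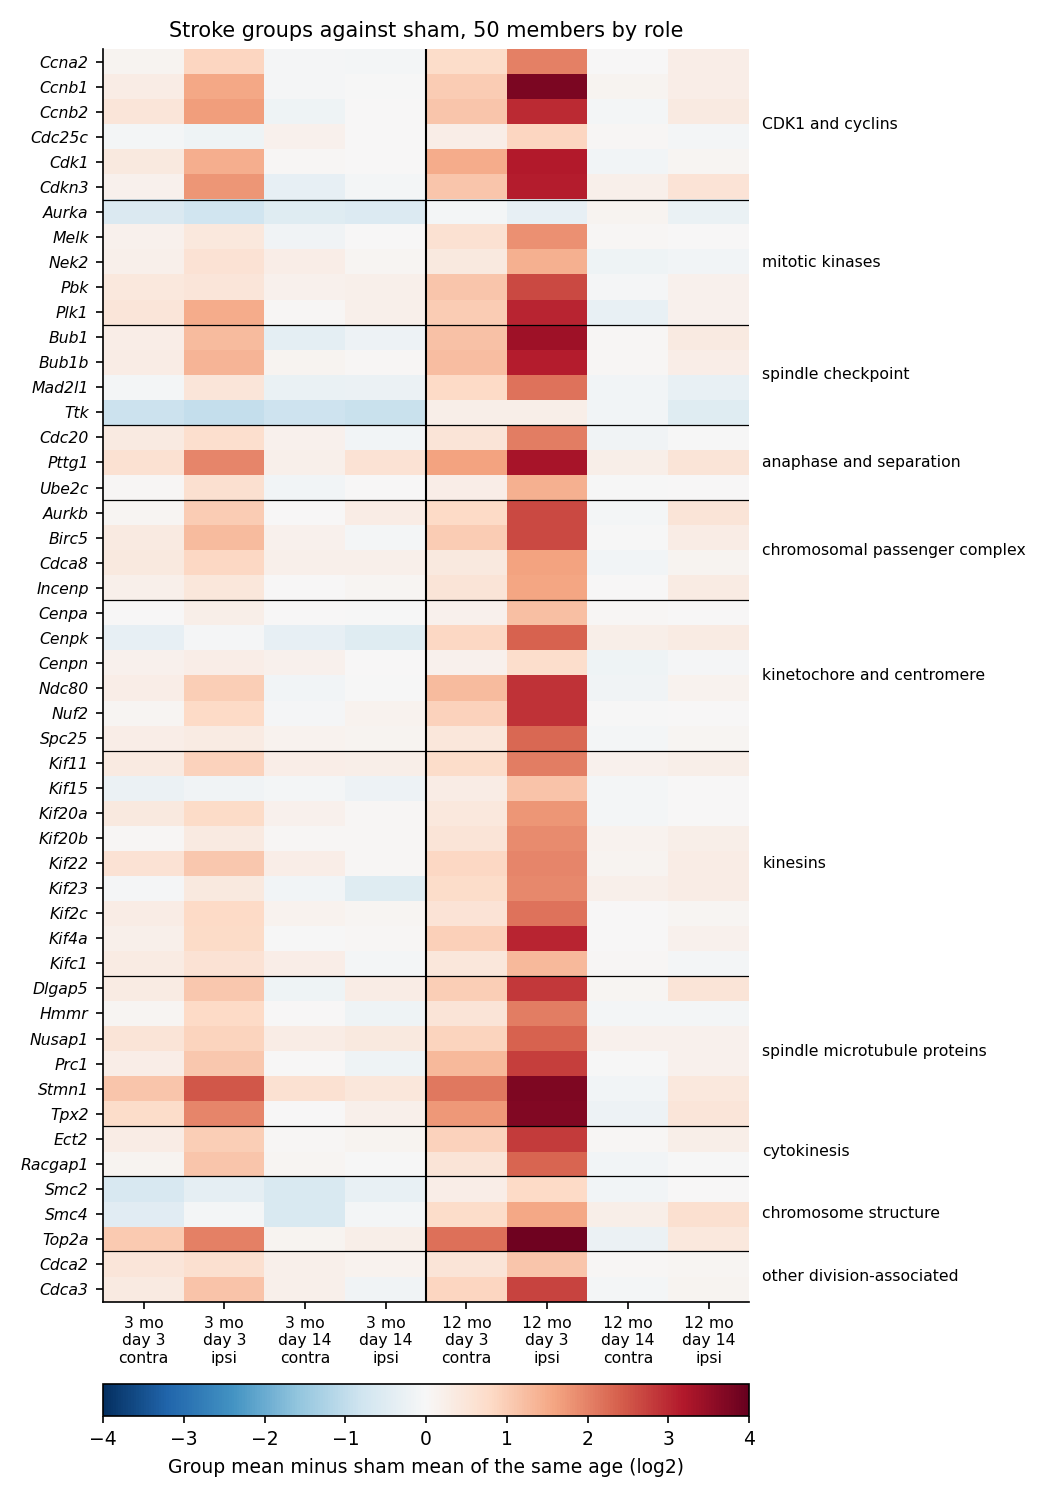
Group mean minus the sham mean of the same age (log2) for the 50 mitotic genes, ordered by role, in the 8 stroke groups; red is above and blue below sham. The 12-month ipsilateral day-3 column is the darkest, reaching 3.89 for Top2a, the contralateral column beside it is paler, and Aurka and Ttk are blue at 3 months.

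Against sham, the ipsilateral samples of day 3 had 42 genes higher and 3 lower at 3 months, where 20.9% of all genes were higher and 35.9% lower, and 48 higher and 1 lower at 12 months, where 22.7% were higher and 14.3% lower. The median difference was 0.82 at 3 months and 2.24 at 12 months, a 4.72-fold difference. Top2a was the largest at 12 months, 14.8-fold, followed by Ccnb1 at 13.6-fold, Stmn1 at 13.1-fold and Tpx2 at 13.0-fold. The single lower gene at 12 months, Aurka, had sham values of 8.47, 8.41 and 8.67 and a difference of -0.32 ± 0.11 (adjusted p = 0.024), which was lost with median centring and without sham replicate 3, ipsilateral replicate 1 or ipsilateral replicate 3, each leaving 0 lower genes. The 3 lower genes at 3 months were Aurka (-0.80 ± 0.11), Ttk (-0.95 ± 0.13) and Smc2 (-0.36 ± 0.11). Ttk read 6.34, 6.10 and 6.11 in 3-month sham samples and 4.90 to 5.55 on the 12 stroke arrays of that age, without overlap. Aurka read 8.54, 8.58 and 8.51 in sham and 7.61 to 8.30 on those 12 arrays, also without overlap.

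At day 14 most of the machinery was back near its sham level. Ipsilateral samples differed from contralateral ones in 3 genes higher and 1 lower at 3 months, where 13.2% of all genes were higher and 7.09% lower, and in 6 higher and 2 lower at 12 months, where 10.9% were higher and 5.94% lower. The medians of the 50 differences were -0.03 and 0.15. The share of the 50 genes called was below that of all genes at 3 months and close to it at 12 months. At 3 months the higher genes were Smc4, Dlgap5 and Smc2, and the lower one Kifc1. Smc4 was 6.51, 6.68 and 6.30 contralaterally and 7.10, 6.96 and 7.04 ipsilaterally, apart by 0.54 ± 0.11 (adjusted p = 0.00089). Dlgap5, a spindle protein that stabilises kinetochore fibres, was 5.06, 5.21 and 4.85 against 5.49, 5.45 and 5.58, apart by 0.47 ± 0.14. Smc2, apart by 0.31, lost its call with the animal as a fixed replicate block, with compared arrays only, with array weights, with quantile normalization (0.27) and without contralateral replicate 1 or 3 or ipsilateral replicate 1 or 3 (0.22 to 0.33). Only 1 higher gene stayed called without contralateral replicate 3, and 1 without ipsilateral replicate 3, and 1 with array weights. The lower call of Kifc1, on 6.04, 5.43 and 5.67 against 5.31, 5.40 and 5.40, was lost in most alternatives and at -0.18 without contralateral replicate 1.

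At 12 months Tpx2, Aurkb, Top2a, Plk1, Dlgap5 and Smc4 were higher at day 14. Tpx2 was 4.31, 4.32 and 4.44 contralaterally and 5.55, 4.69 and 4.84 ipsilaterally, a difference of 0.67 ± 0.14, and Aurkb was 4.42, 4.10 and 4.23 against 5.18, 4.58 and 4.83, a difference of 0.61 ± 0.13. Top2a was 4.77, 4.55 and 4.62 against 6.04, 5.21 and 4.63 and overlapped. Ipsilateral replicate 1 was the highest of its group for Tpx2, Aurkb and Top2a. Without that replicate 2 genes were called, Tpx2 (0.41) and Aurkb (0.45). Plk1 at 0.26, Smc4 at 0.30, Top2a at 0.28 and Dlgap5 then no longer passed. Within the 3 animals the difference of Dlgap5 was 0.31, 0.71 and 0.32. Top2a (0.65) and Plk1 (0.47) also lost their calls with compared arrays only, Top2a without contralateral replicate 2 (0.60) or 3 (0.63), and Plk1 (0.44) and Smc4 (0.38) without contralateral replicate 1. In the animal of replicate 1 the median of the 50 differences was 0.32, against 0.05 and 0.06 in the other animals. Array weights, which lower the weight of arrays that depart from their group, gave 11 genes higher. The lower genes were Aurka, with 8.59, 8.61 and 8.66 against 8.22, 8.28 and 8.28 (-0.36 ± 0.11), and Ttk, with 5.77, 6.07 and 5.78 against 5.55, 5.43 and 5.52 (-0.37 ± 0.13). Their calls fell to 0 without contralateral replicate 2, contralateral replicate 3 or ipsilateral replicate 1, and to 1 without ipsilateral replicate 2 or 3, and that of Ttk was also lost with the animal as a fixed replicate block, no filter, quantile normalization or median centring.

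Set against sham at day 14, the ipsilateral samples had 2 genes higher and 5 lower at 3 months, where 11.0% of all genes were higher and 23.4% lower, and 7 higher and 1 lower at 12 months, where 11.9% were higher and 8.09% lower. At 3 months Pttg1 and Nusap1 were the higher ones, and the count was 0 without ipsilateral replicate 2 and 1 without sham replicate 1. At 12 months the 7 became 1 without ipsilateral replicate 1, 4 without sham replicate 2 and 12 without ipsilateral replicate 3, and the lower call, Ttk, was lost without sham replicate 3. Pttg1 was above sham at day 14 at both ages, by 0.57 ± 0.16 and 0.52 ± 0.16. Its difference from the contralateral samples did not pass at either age. Within the 3 animals that difference was -0.07, 1.03 and 0.19 at 3 months and 0.69, 0.0 and 0.21 at 12 months.

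From day 3 to day 14 the ipsilateral signal fell for 40 genes at 3 months and rose for 0, where 7.51% of all genes fell and 22.0% rose. At 12 months 49 fell and 0 rose, where 14.1% of all genes fell and 6.53% rose. The median change was -0.72 and -2.13. Ccnb1 fell by 3.48 on the log2 scale at 12 months, to 5.16, 4.41 and 4.15, and Stmn1 by 2.03 at 3 months, to 6.17, 6.38 and 6.45. The exception at 12 months was Aurka. At 3 months 1 gene was higher without day-3 ipsilateral replicate 3 or without day-14 ipsilateral replicate 2. The hemisphere difference itself shrank from day 3 to day 14 for 24 genes at 3 months and widened for 0, where 1.24% of all genes were lower and 2.57% higher, and for 43 against 0 at 12 months, where 3.59% were lower and 1.75% higher. Ccnb1 led at 12 months (-2.57 ± 0.28, adjusted p = 3.7e-07) and Stmn1 at 3 months (-1.52 ± 0.35, adjusted p = 0.012).

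Sham samples of the 2 ages differed in few of these genes: 0 were higher and 3 lower at 12 months, where 7.47% of all genes were higher and 5.52% lower. The 3 were Kif23 (-0.58 ± 0.13), a cytokinesis kinesin, Smc4 (-0.46 ± 0.11) and Cenpk (-0.44 ± 0.12), and Kif23 read 5.39, 5.54 and 5.93 at 3 months and 5.11, 5.02 and 4.98 at 12 months. All 12-month samples carry 1 code number that no 3-month sample carries, so that code number and age cannot be told apart here or in any other comparison of the ages.

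The effect of age was tested on the hemisphere difference. At day 3 the ipsilateral excess was larger at 12 than at 3 months for 30 genes and smaller for 0, where 1.42% of all genes were higher and 0.154% lower. The median of the 50 was 0.79 on the log2 scale, and that of all genes 0.03. Spc25 had the largest value, 1.77 ± 0.18 (adjusted p = 1.2e-06), followed, among genes that were not dim in all samples of a group compared, by Ccnb1 (1.49 ± 0.28) and Pbk (1.48 ± 0.21). Kif4a measured 1.52 ± 0.23, but its contralateral values at 3 months were dim, as were those of Bub1, Nuf2, Ect2 and others. For these genes the 3-month difference may be understated and the age value may be too high. On the 3 contralateral day-3 arrays 14, 17 and 14 of the 50 genes were dim at 3 months, against 4, 8 and 2 at 12 months. On the ipsilateral ones 5, 6 and 6 were dim at 3 months and 0 on each at 12 months. Pbk lay above the dim range on only 10 of the 30 arrays. The passenger complex passed with 4 of 4 genes, kinesins with 7 of 9 and the kinetochore group with 5 of 6. Cytokinesis passed with 2 of 2 measured genes, the other mitotic kinases with 4 of 5 and the spindle microtubule proteins with 4 of 6. The spindle checkpoint had 2 of 4 and anaphase 1 of 3. In the CDK1 group 1 of 6 genes passed, Ccnb1, in chromosome structure 0 of 3 and among the other division-associated genes 0 of 2. Some genes with large responses at both ages did not pass: the value was 0.26 ± 0.35 for Stmn1, 0.34 ± 0.23 for Pttg1 and 0.63 ± 0.23 for Cdk1, and 20 genes in all did not. A larger 12-month value was seen for 49 of the 50, whether or not it passed. After quantile normalization of the arrays 18 genes passed. Stroke arrays of 3-month rats had a narrower spread of log2 signals (SD 1.79 to 1.93 over an array) than the other arrays (1.94 to 2.05), and its part in the age difference was not tested beyond that alternative. At day 14 limma called 0 genes higher and 0 lower by age, against 0% and 0.00857% of all genes, and 4 of the 50 had an unadjusted p under 0.05.

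**Figure D5:**
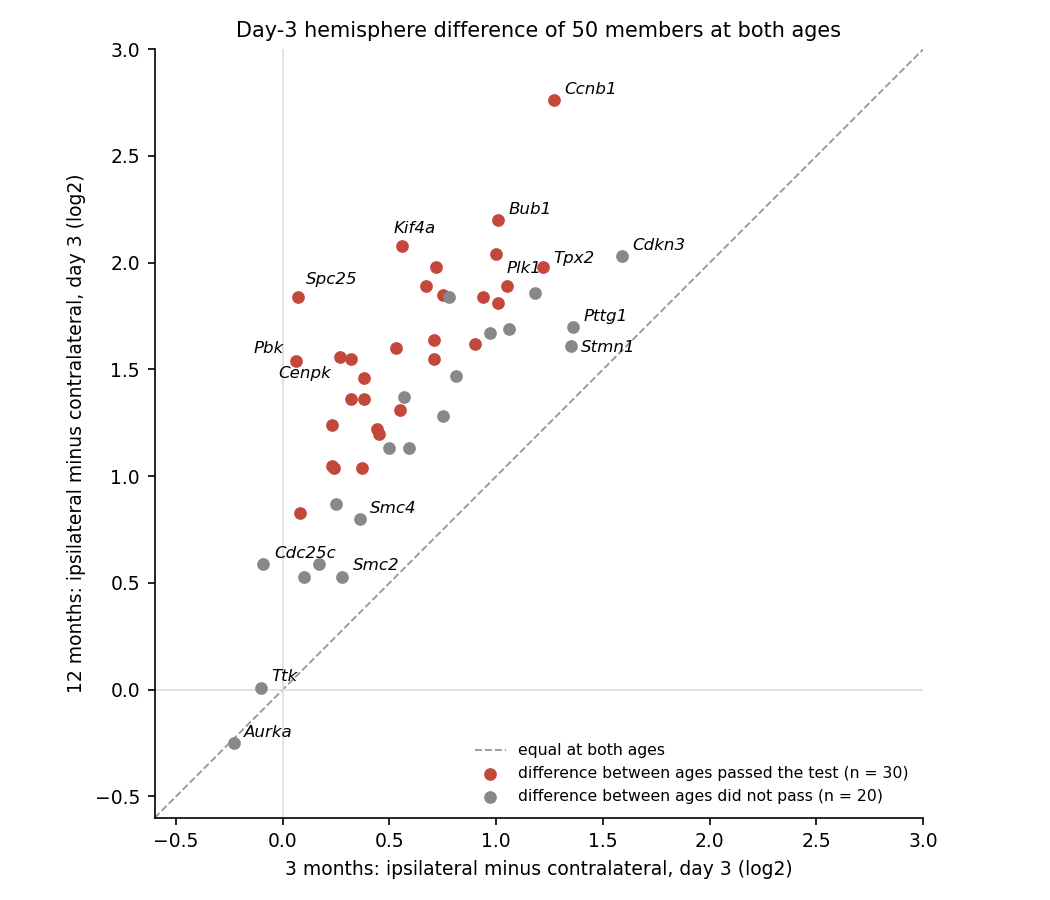
Ipsilateral minus contralateral difference at day 3 (log2) of the 50 mitotic genes at 3 months (horizontal) and 12 months (vertical); red points are the 30 genes whose difference between the ages passed the test, grey the other 20, and the dashed line marks equal differences. Ccnb1 lies at 1.27 and 2.76, Spc25 at 0.07 and 1.84, Stmn1 at 1.35 and 1.61, and Aurka and Ttk near the origin.

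Related genes outside the 50 were read from lists of the same pathway, beside which the shares of all genes tested were 18.7% higher and 10.0% lower at 12 months and 11.5% and 8.95% at 3 months. At day 3 in 12-month rats 12 of 15 other kinetochore and checkpoint genes were higher ipsilaterally and 0 lower, led by Ska3, of the complex that tracks microtubule ends, from 5.25, 4.75 and 4.89 to 6.89, 6.43 and 6.86 (1.77). Of 11 other spindle and cytokinesis genes 9 were higher and 1 lower (Fam83d, -0.55), led by Aspm, a spindle pole protein, from 5.25, 4.83 and 5.19 to 6.74, 6.85 and 7.08 (1.80). At 3 months 4 genes of each list were higher and 1 lower. The anaphase-promoting complex had 8 of 15 higher at 12 months, with a median of 0.31 against 1.55 for the 50 genes. At 3 months 2 of its genes were higher and 1 lower, close to the shares of all genes. Of 8 other condensin and cohesin genes 4 were higher and 1 lower at 12 months, with a highest difference of 0.44.

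Of 14 transcription factors and partners that activate or repress cell cycle genes, 8 were higher ipsilaterally and 0 lower at 12 months at day 3. At 3 months 0 were higher and 1 lower. Foxm1 was 6.48, 6.15 and 6.19 contralaterally and 7.24, 6.90 and 7.00 ipsilaterally at 12 months (0.77), and 6.26, 6.31 and 6.09 against 6.69, 6.34 and 6.29 at 3 months, which did not pass. Mybl2, B-Myb, was 4.82, 4.89 and 5.01 against 5.83, 5.84 and 6.14 at 12 months (1.03), and 5.22, 5.15 and 5.15 against 5.40, 5.43 and 5.36 at 3 months, which did not pass. E2f7, a repressor induced in the cycle, rose by 1.09 at 12 months. The change of the hemisphere difference with age passed for 2 of these 14 genes.

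Other cyclins, their kinases and regulators of G1 and of entry into mitosis, read as 1 list, went in both directions. Of these 14 genes 8 were higher and 2 lower ipsilaterally at day 3 at 12 months, and 4 higher and 3 lower at 3 months. Ccnd2, a D-type cyclin, fell from 7.95, 8.17 and 7.90 to 7.19, 7.16 and 7.13 at 12 months (-0.85) and from 7.87, 7.41 and 7.37 to 6.77, 6.38 and 6.15 at 3 months (-1.12). Its kinase partners rose at both ages, Cdk4 by 0.75 at 12 months and 0.50 at 3 months and Cdk6 by 0.96 and 0.59. Wee1, the kinase that holds CDK1 inactive, fell by 0.63 at 12 months and 0.84 at 3 months. Ccne1, cyclin E1, rose by 1.37 at 12 months, from 4.61, 4.48 and 4.60 to 6.36, 5.54 and 5.89. At 3 months its values were dim on all 3 contralateral arrays and on 1 ipsilateral array, and a measured 0.15 did not pass. Among 11 brakes of the cycle 2 were higher and 3 lower at 12 months and 3 higher and 1 lower at 3 months. Cdkn1a, the CDK inhibitor p21, was 8.03, 7.69 and 7.58 contralaterally and 8.76, 8.15 and 7.99 ipsilaterally at 3 months (0.53, limma adjusted p = 0.011; the groups overlapped, but within the 3 animals the differences were 0.73, 0.46 and 0.41), and 8.65, 8.86 and 8.66 against 8.52, 8.29 and 8.54 at 12 months (-0.28, not passing; -0.13, -0.57 and -0.12 within the animals). The difference between the ages, -0.81, passed, opposite in sign to that of the mitotic genes. Cdkn2c, an inhibitor of CDK4 and CDK6, rose at both ages, by 1.01 and 0.65.

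The labelled cell type was checked against its markers, and in bulk RNA fewer cells of a type and less RNA per cell cannot be told apart, nor can more cells and more RNA. P2ry12 and Cx3cr1, microglial surface receptors, stood at 10.83 to 12.08 and 11.12 to 11.95 in every sample. At day 3, 7 of 8 microglial markers tested were lower ipsilaterally at 3 months and 8 of 8 at 12 months, with the log2 of their summed signal at 13.05 to 13.30 against 13.80 to 13.94 contralaterally at 3 months and at 13.36 to 13.53 against 13.94 to 14.03 at 12 months. Monocyte and macrophage markers were also higher ipsilaterally at day 3, 10 of 10 tested at 3 months and 9 of 10 at 12 months. Their summed signals were 10.86 to 11.85 against 9.60 to 9.82 and 11.62 to 11.78 against 9.97 to 10.44. Border-associated macrophage markers were higher in 6 of 7 and 7 of 7, with 10.88 to 11.20 against 9.65 to 10.18 and 10.65 to 11.09 against 9.48 to 9.76. Neutrophil markers were higher in 4 of 11 at 3 months (10.94 to 12.51 against 9.71 to 10.58) and 1 of 11 at 12 months (10.68 to 10.95 against 10.22 to 10.30). None of the monocyte, border-associated macrophage or neutrophil markers was in the dim range on all 3 arrays of an ipsilateral day-3 group. T and NK cell markers were higher in 1 of 10 and lower in 1 of 10 at each age, and Cd3d and Nkg7 at 3 months and Cd3e and Cd2 at 12 months were in the dim range there. The part of these cells in the mitotic signal was not tested. At day 14 the summed monocyte and macrophage signal was 10.15 to 10.37 ipsilaterally against 9.65 to 9.83 contralaterally at 3 months. At 12 months it was 10.05 to 10.65 against 10.06 to 10.13. The median mitotic differences between the hemispheres were then -0.03 and 0.15. In the contralateral samples of 12 months at day 3, where 36 mitotic genes were higher than in sham, 1 of 10 monocyte and macrophage markers was higher, 0 of 7 of border-associated macrophages, 0 of 11 of neutrophils and 0 of 8 of microglia, and the summed monocyte signal was 9.97 to 10.44 against 9.80 to 9.97 in sham. For the difference of the hemisphere effect with age at day 3, where 30 mitotic genes passed, limma called 0 markers of each of these 5 lists.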

How the data were processed

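Microglial RNA from 30 samples in 10 groups of 3 was measured on 1-colour arrays. Per the submitters' processing notes, the authors made the deposited log2 values with RMA in Affymetrix Expression Console; the versions are not given in the sources used here. RMA corrects background and normalizes between arrays, so a difference is relative to the bulk of probe sets, and small differences near background are compressed. Of 29214 probe sets, 15310 had 1 gene symbol in the platform annotation, 323 had several and 13581 were not listed. A gene was tested if its probe set lay above the 30th percentile of the array (4.07 to 4.35) on at least 3 arrays, and a value at or below it is called dim. Where a group was dim on all its arrays, the difference is inexact. For named genes whose difference passed, a lower bound is given where one above 0 could be computed. It allows for the dim range only and not for the spread among samples.

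One limma model of the 10 group means (limma 3.58.1, R 4.3.3) gave 19 comparisons, two-sided, with Benjamini-Hochberg adjustment over 11675 genes and calls at an adjusted p under 0.05; every adjusted p and standard error comes from this fit, which was tested on simulated data. Adjusted p-values are those over all genes. The number of arrays limits the precision. Values were tabulated with Python 3.11.15 and pandas 2.3.3. Hemispheres of an animal were paired by its code; deviations from the group means correlated at -0.08 to 0.21 and the estimated correlation within animals was 0.075.

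Values in every sample are given for the gene of each role with the highest mean, the gene with the largest hemisphere difference, and genes called against the prevailing direction. Other genes with values, among them Kif23, Dlgap5, Cdca3 and related pathway genes, were partly chosen after their values were seen. The members, gene lists and tests were chosen with earlier results of these data known. Alternatives were other filters, normalizations, array weights, a fit on the compared arrays only, the animal as a block and leaving out each replicate.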

Additional observations from a re-analysis of the deposited data

Results flagged for a closer look

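The hemisphere difference of the mitotic genes changed with time and age by tests of the difference itself (limma, adjusted p under 0.05). It was smaller at day 14 than at day 3 for 24 genes at 3 months and for 43 at 12 months, beside 1.24% and 3.59% of all genes tested. It was larger at 12 than at 3 months at day 3 for 30 genes, beside 1.42% of all genes (smaller for 0, beside 0.154%), and for 18 after quantile normalization. Among the kinases and cyclins the excess at 12 months was 1.49 for Ccnb1, 1.04 for Plk1, 1.19 for Bub1 and 0.90 for Aurkb on the log2 scale. At the centromere it was 0.72 for Birc5, 1.77 for Spc25, 1.25 for Nuf2 and 1.28 for Cenpk. Spindle and cleavage genes had 0.77 for Kif11, 1.52 for Kif4a, 0.76 for Tpx2, 1.09 for Nusap1, 1.23 for Ect2 and 0.80 for Racgap1. Contralateral values at 3 months were dim for Bub1, Nuf2, Kif4a and Ect2, so that their age values may be too high. Cdkn1a, outside the 50 genes, differed by age the other way (-0.81). Groups of 3 were too small for the test of single outlying samples.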

How the results depend on the processing

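Of 358 counts of called genes under other settings 331 stayed within 1.5 times the main count, and of 276 with a replicate left out 246 did. With a replicate block for the animal, as a random or a fixed effect, the day-3 hemisphere counts stayed at 35 and 48; the age count at day 3 was 33 and 30, and the 3-month count of differences that shrank by day 14 was 26 and 23. The counts that moved were mostly small. Ipsilateral against contralateral at 3 months, day 14, gave 1 higher gene with array weights, and in place of 1 lower gene 2 with the random replicate block or a stricter filter and 0 with no filter, quantile normalization, median centring, array weights or compared arrays only. At 12 months, day 3, there was 1 lower gene with quantile normalization, array weights or compared arrays only. At 12 months, day 14, there were 11 higher with array weights, and 1 lower with the fixed replicate block, no filter, quantile normalization or median centring. Ipsilateral against sham gave 5 higher at 3 months, day 14, with compared arrays only, 0 lower at 12 months, day 3, with median centring, and at 12 months, day 14, 16 higher with array weights and 2 lower with quantile normalization. Contralateral against sham at 3 months gave 12 higher at day 3 with quantile normalization, and at day 14 1 higher with no filter or quantile normalization and 0 with median centring, array weights or compared arrays only. The age difference at day 3 was called for 18 genes with quantile normalization. The cause of these changes was not tested.

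Leaving out 1 replicate gave these ranges: ipsilateral against contralateral, 0 to 1 lower at 3 months, day 3, 1 to 3 higher and 0 to 2 lower at 3 months, day 14, 2 to 9 higher and 0 to 2 lower at 12 months, day 14; ipsilateral against sham, 0 to 3 higher at 3 months, day 14, 0 to 1 lower at 12 months, day 3, 1 to 12 higher and 0 to 1 lower at 12 months, day 14; contralateral against sham at 3 months, 12 to 16 higher at day 3 and 0 to 4 at day 14; day 14 against day 3 at 3 months, 0 to 1 higher. Ttk, not called at day 3, changed sign: to -0.018 at 12 months with quantile normalization, and with a replicate left out it ran from -0.192 to 0.063 at 3 months (0.063 without ipsilateral replicate 1) and from -0.036 to 0.069 at 12 months (below 0 without contralateral replicate 1 or 3 or ipsilateral replicate 1). In the 200 bases before the start, TTTGAA was found in 50.0% of the windows and TTTGAA or TTTAAA in 70.4%. Dim signals limit Bub1, Nuf2, Kif4a, Ect2 and Ccne1 at 3 months.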
